A study of Homo sapiens with 6 samples.

Results

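The sites described here are the Argonaute crosslink sites that the authors assigned to the seed that miR-106b-5p, miR-93-5p, miR-20a-5p and miR-17-5p have in common. The cells were HK2, a human cell line derived from the proximal tubule of the kidney. All sites whose seed entry names miR-17-5p were taken, whatever the type of match or the gene feature, which gave 402 of 16230 listed sites, in 355 of 4361 gene names. No count of reads entered the choice. Argonaute was mapped by PAR-CLIP, in which cells take up 4-thiouridine, ultraviolet light links it to bound protein, and the linked base is read as a sequence change. The groups were 2 anti-Argonaute libraries from cells that received 20 ng/mL TGF-beta1 during 24 h and 2 from control cells without it. All were wild-type HK2 cells. Per the labels' protocols, a serum-free period of 24 h came first, 100 µM 4-thiouridine was present over the last 20 h, light of 365 nm was used, and bound RNA was trimmed with micrococcal nuclease. The series also holds 2 IgG libraries, which were not analysed here, so no pull-down background stands beside the values. The series title names miR-17/20a and Frmd6 in renal epithelia, and the design asks where microRNAs bind in treated and control cells.

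MicroRNAs guide Argonaute to messenger RNAs mainly through their seed, positions 2 to 8 from the 5′ end, and Argonaute then lowers translation and stability of the target. The miR-17 family is made from clustered genes and is known for targets in the cell cycle, in cell death and in TGF-beta signalling. TGF-beta1 is a main driver of fibrosis in the kidney, where tubule cells respond to it through SMAD proteins.

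The 4 mature microRNAs are shown, from RefSeq on GRCh38.p14, because their common seed defines the sites; capitals mark positions 2 to 8. miR-17-5p and miR-20a-5p lie on chromosome 13 and miR-93-5p and miR-106b-5p on chromosome 7.
miR-17-5p: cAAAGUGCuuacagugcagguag
miR-20a-5p: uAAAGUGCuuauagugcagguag
miR-93-5p: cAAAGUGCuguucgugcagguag
miR-106b-5p: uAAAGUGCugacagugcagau
The seed is the same in all 4, so a site cannot be given to one of them from its seed match. Position 9 is U in all 4. The authors' table gave a microRNA abundance of 3425, as library-scaled reads, for this seed entry, the 24th highest of 42 entries, whereas the entry was 7th by number of sites.

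Target sites are shown for the sites that passed the test between treated and control cells and for abundant sites in untranslated and coding sequence. They are RNA-sense strands from the deposited table (hg38), written with T, and capitals mark the bases paired with the seed.
FRMD6, 3′ UTR, chr14:51728174-51728197, plus strand: aagccttggaacaattGCACTTTa
SEMA7A, 3′ UTR, chr15:74409328-74409351, minus strand: tgcacctcttctcaatGCACTTTa
EGR2, 3′ UTR, chr10:62812742-62812765, minus strand: caagcaaaactgatgtGCACTTTa
ITGB8, 3′ UTR, chr7:20410280-20410303, plus strand: ctgaagagcactgattaCACTTTa
ANKRD33B, 3′ UTR, chr5:10651588-10651611, plus strand: agtgtctgtcacatatGCACTTTa
MSMO1, 3′ UTR, chr4:165343014-165343039, plus strand: aactgacttgctgtatttGCACTTTg
SHOC2, 3′ UTR, chr10:111012946-111012969, plus strand: tgctgctgaactaaatGCACTTTt
KIF23, 3′ UTR, chr15:69448248-69448271, plus strand: tattagctgcaagaatGCACTTTa
SERINC1, coding sequence, chr6:122458587-122458610, minus strand: aactagattgatctatGCACTTTt
CCNB1, coding sequence, chr5:69175449-69175472, plus strand: tggactatgacatggtGCACTTTc
RAB7A, coding sequence, chr3:128807644-128807666, plus strand: gacgattgcacggaatGCACTTa
LIMK1, 3′ UTR, chr7:74122361-74122384, plus strand: gtgaagctttctcagtGCACTTTg
In FRMD6, SEMA7A, EGR2, ANKRD33B, SHOC2, KIF23, SERINC1, CCNB1, RAB7A and LIMK1 the crosslinked base is the t directly before the capitals. In ITGB8 it is the second base before them and in MSMO1 the fifth base before them. ITGB8 pairs with positions 2 to 7 only and RAB7A with positions 3 to 8 only.

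The deposited values gave library depths of 5293208 and 3415700 reads in TGF-beta1 libraries 1 and 2, against 1714445 and 1926255 reads in control libraries 1 and 2. These reads carry no stated molecular identifiers, and the labels do not state whether replicates are separate cultures. The p-values therefore cover only the spread between these libraries, possibly technical. Of marker genes, 0 of 8 proximal tubule, 0 of 5 fibroblast, 0 of 3 endothelial and 0 of 3 leukocyte genes had a listed site, and 2 of 6 epithelial genes did (KRT18 and CLDN1). A gene without an Argonaute site is not shown to be unexpressed, so these counts do not check the cell type.

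Most crosslinked reads of the miR-17 family sites lay in 3′ UTRs. Of the 402 sites, 244 lay in 3′ UTRs, 78 in coding sequence, 47 in introns, 10 between genes and 9 in non-coding RNA, with the other features at 5 sites or fewer each. The 3′ UTR sites held 75.7% of the 10556 crosslinked reads at the 402 sites, the coding sites 16.9% and the intronic sites 2.72%. Among the 9847 sites with another seed entry, 44.6% of sites and 66.1% of reads lay in 3′ UTRs, against 60.7% of sites for the miR-17 family. The median over the 4 libraries together was 11 reads per miR-17 family site and 8 per site with another seed entry. All 402 sites had a crosslinked read in at least 1 TGF-beta1 library, and 23 (5.72%) had none in either control library, which were sequenced less deeply. Of the sites with another seed entry, 1.03% had none in either TGF-beta1 library and 9.24% had none in either control library.

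Full seed matches carried more reads than partial ones. A 7-nt match to positions 2 to 8 was present at 201 sites, a 6-nt match to positions 2 to 7 at 135 and a 6-nt match to positions 3 to 8 at 63, and 3 sites had a bulged match. The 7-nt sites held 74.5% of the crosslinked reads with a median of 16 reads, and both kinds of 6-nt site had a median of 7 reads. At 7-nt sites of other seed entries the median was 11 reads. In the base opposite position 1 of the microRNA, which Argonaute itself can contact when it is A, 82 of 200 miR-17 family 7-nt sites had A, with a median of 16 reads, against 17 reads without A.

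The crosslink sat at one position relative to the 7-nt match. At 163 of the 201 sites (81.1%) the crosslinked T was the base directly before the match, opposite position 9 of the microRNA. For 7-nt sites of other seed entries this share was 53.2%. The base before the match was T at 87.1% of the miR-17 family 7-nt sites and at 63.3% of the others. A site crosslinked at that base has T there by definition. Such sites were 163 of the 175 with T there in the family, and 1520 of the 1807 others. The T shares therefore do not separate sequence from crosslink position. At the 6-nt sites that match positions 3 to 8, the crosslink was directly before the match, again opposite position 9, at 13 of 63 sites. With a match to positions 2 to 7, the base directly before it lies opposite position 8 and was crosslinked at 13 of 135 sites. The base opposite position 9 is then the second before the match, and it was crosslinked at 25 of those sites.

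**Figure D1:**
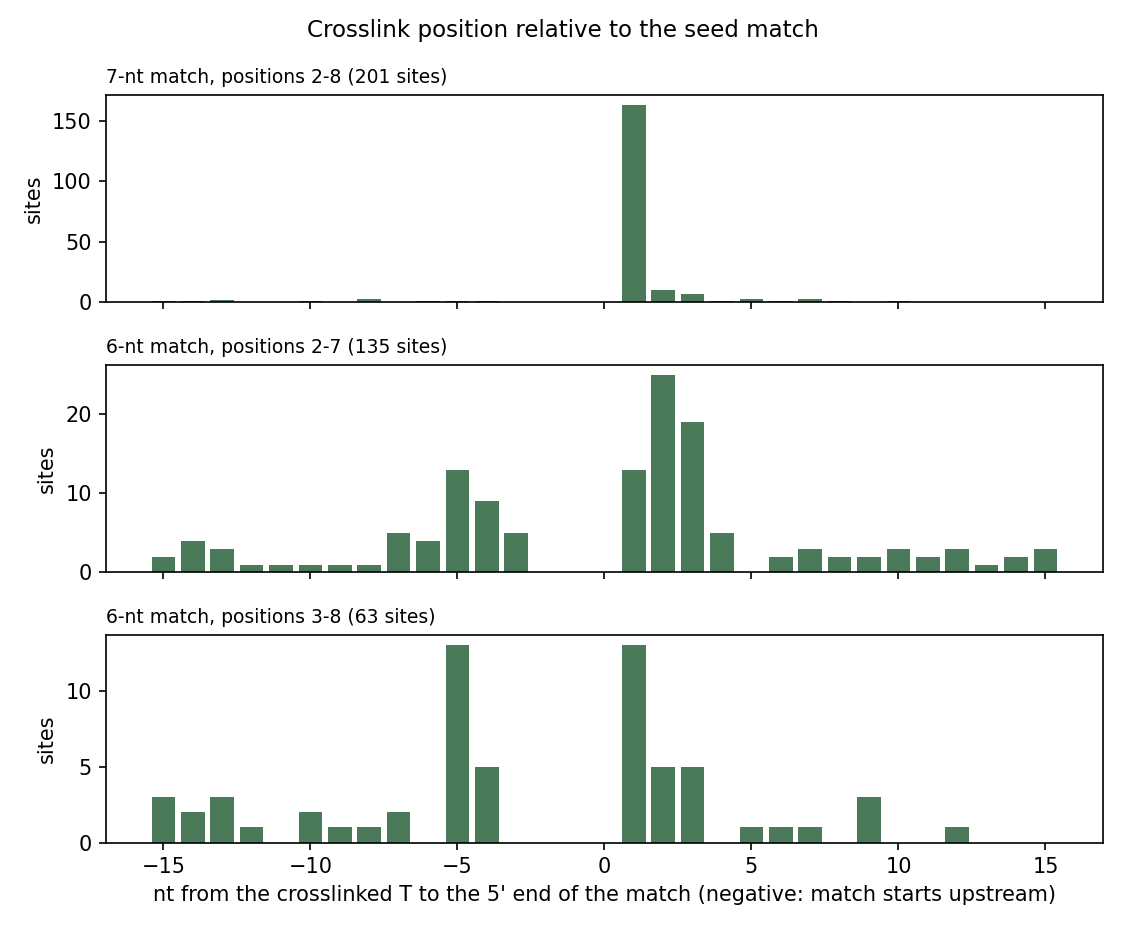
Number of miR-17 family sites (vertical axis) by the distance in nt from the crosslinked T to the 5′ end of the seed match (horizontal axis), for the 3 main match types. Most 7-nt sites stand at 1, where 163 of 201 lie, and the 6-nt sites are spread over more positions, with 25 of the 135 sites that match positions 2 to 7 at 2.

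The T before the match also completes a further seed match. The letters TGCACT pair with positions 3 to 8 of miR-148a-3p, shown here for that overlap with its seed in capitals.
miR-148a-3p: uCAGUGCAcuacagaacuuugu
On the RNA-sense strand, TGCACT stood in the 31-nt window of 212 of the 402 sites (52.7%), against 440 of all 16230 windows (2.71%). The 440 include the 212. TGCACT overlaps the miR-17 family match GCACTTT by 5 bases. The choice of sites already required these bases at 7-nt matches, so the contrast follows in large part from that choice. The authors listed the miR-148a seed as adjacent or near at 196 of the 402 sites. At such sites the crosslinked reads cannot be divided between the seeds. Letters that would pair with positions 13 to 16 of these microRNAs (CACT or CACG) stood in the 15 nt before the crosslink at 17 of the 163 sites with a 7-nt match and the crosslink directly before it (10.4%), against 7.5% of the 1520 such sites of other seed entries. Median reads were 16 with these letters and 18.5 without them at the miR-17 family sites.

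The family as a whole did not differ between treated and control cells beyond the spread of the libraries. Crosslinked reads at the 402 sites made up 4.13% and 4.68% of all listed crosslinked reads in TGF-beta1 libraries, against 4.08% and 4.77% in control libraries. The means were 4.41 ± 0.39% and 4.42 ± 0.49% (SD, n = 2 each), with an exact two-sided permutation p of 1; with 2 libraries against 2 the smallest possible p is 0.333. Levels are given below as scaled RPM, the authors' library-scaled read values adjusted by TMM factors, which correct for differences in library composition. Summed over the 402 sites they were 843 and 962 in TGF-beta1 libraries, against 836 and 1002 in control libraries, so the groups overlapped. The log2 difference was -0.02 ± 0.13 (SE), with a limma adjusted p of 0.886 over 42 seed entries, of which 2.38% passed the test. The family ranked 5th of the 42 entries by mean scaled RPM.

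**Figure D2:**
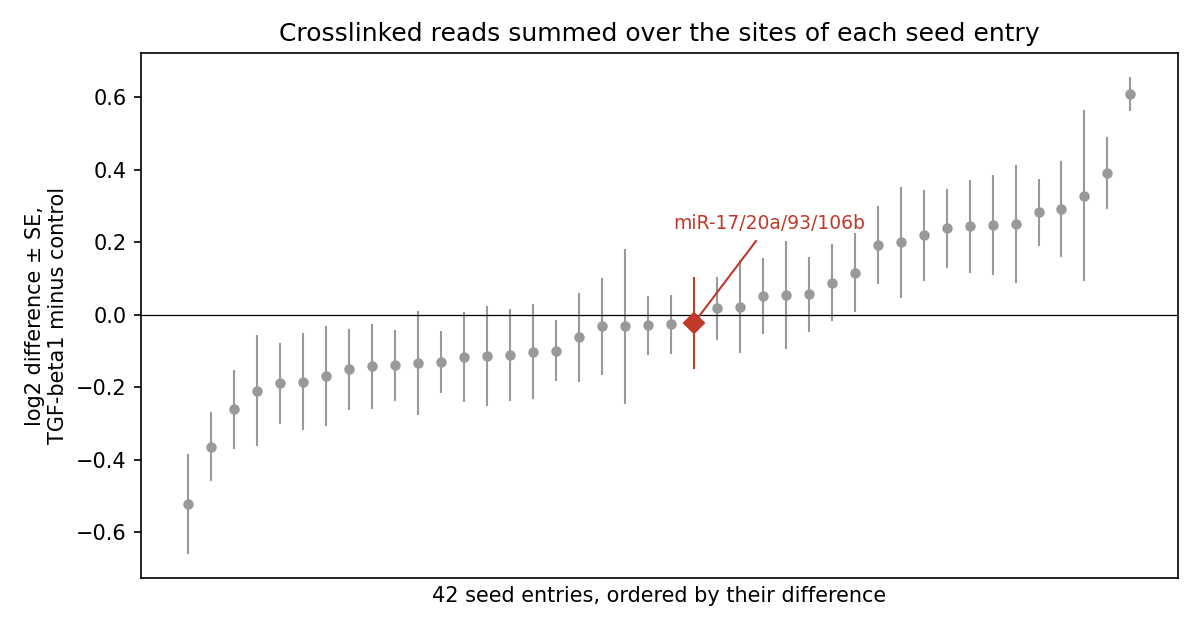
Log2 difference of summed scaled RPM, TGF-beta1 minus control (vertical axis), for the 42 seed entries in order of their difference (horizontal axis); bars are standard errors from limma. The miR-17 family entry, drawn as a diamond, lies at -0.02.

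Within the family, 6 sites passed the test for a difference between treated and control cells, all in 3′ UTRs. A filter that asks for a minimum level, scaled to library depth, in at least 2 libraries left 61 of the 402 sites. The other 341 had between 2 and 45 reads in all. Of the 61, 51 lay in 3′ UTRs, 7 in coding sequence and none in introns. The filter could be met by the libraries of a single group. FRMD6 and SEMA7A met it only through the TGF-beta1 libraries, and ITGB8 and ANKRD33B only through the control libraries. Each of these sites thus entered the test through the group where it was high, so entry and test were not independent there. Fits over 1059 sites used limma with Benjamini-Hochberg adjustment at 0.05, and 7.18% of them passed. Of the 61 miR-17 family sites, 4 were higher in TGF-beta1 cells, where 3.68% of all sites were, and 2 were lower, where 3.49% of all sites were. The median log2 difference was -0.01 over the 61 sites and 0.05 over all tested sites. At an unadjusted p under 0.05 stood 17 of the 61 sites, and 204 of the 1059.

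FRMD6, a FERM-domain protein upstream of the Hippo kinases, had its one miR-17 family site among those that rose. The site held 77 and 59 crosslinked reads in TGF-beta1 libraries, against 4 and 5 in control libraries. In scaled RPM the site had 23.7 and 16.9 in TGF-beta1 cells, against 2.21 and 1.72 in control cells, with no overlap of the groups. Its mean was 10.3-fold higher in TGF-beta1 cells (20.3 ± 4.8 against 1.97 ± 0.35, SD, n = 2 each), and its log2 difference was 2.83 ± 0.41 (SE, limma adjusted p = 6.4e-05). The site holds a full 7-nt match followed by A.

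SEMA7A, a membrane-anchored semaphorin, rose at a 7-nt site of like form. It had 8.0 and 8.57 scaled RPM in TGF-beta1 cells, against 0.553 and 1.03 in control cells, from 26 and 30 reads against 1 and 3. The log2 difference was 2.39 ± 0.54 (SE, limma adjusted p = 0.00669), and the groups did not overlap. Without TMM factors the SEMA7A call was lost (limma adjusted p = 0.117). EGR2, a zinc-finger transcription factor of the early growth response group, had 6.77 and 9.71 scaled RPM in TGF-beta1 cells, against 0.553 and 3.10 in control cells. Its log2 difference was 1.85 ± 0.55 (SE, limma adjusted p = 0.0392), the weakest of the calls that rose, with 1 and 9 reads in the control libraries. The EGR2 call was also lost with a pseudocount of 0.5 (limma adjusted p = 0.0516), without TMM factors (0.284), without the variance trend (0.0853) and by DESeq2 (0.127). Without control library 1 or 2 its log2 difference was 1.15 and 2.45.

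The sites that fell lay in ITGB8 and ANKRD33B. ITGB8, the integrin subunit that takes part in releasing active TGF-beta, had 1.85 and 0.286 scaled RPM in TGF-beta1 cells, against 10.5 and 12.7 in control cells. Its mean was 10.9-fold higher in control cells than in TGF-beta1 cells, and the log2 difference was -2.72 ± 0.53 (SE, limma adjusted p = 0.00211). It is the only listed site of that gene and a 6-nt match. ANKRD33B, an ankyrin-repeat gene, had 2.77 and 1.14 scaled RPM in TGF-beta1 cells, against 10.5 and 7.92 in control cells, with a log2 difference of -1.83 ± 0.50 (SE, limma adjusted p = 0.0243). Without the variance trend the ANKRD33B call was lost (limma adjusted p = 0.0607). In both genes the treated and control libraries did not overlap.

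The calls rest on 2 libraries a group. Leaving out TGF-beta1 library 1 left 0 of the 6 calls and 3 calls among all sites, leaving out TGF-beta1 library 2 left 1 call in the family and 5 among all sites, and leaving out control library 1 or 2 gave 4 and 11 calls in the family and 102 and 116 among all sites. Without TGF-beta1 library 1 or 2 the limma adjusted p was 0.208 and 0.0637 for FRMD6, 0.38 and 0.263 for SEMA7A, 0.483 and 0.434 for EGR2, 0.107 and 0.165 for ITGB8, and 0.252 and 0.324 for ANKRD33B. Without control library 1 it was 0.12 for both EGR2 and ANKRD33B. Tested by limma on covering reads, 0 of 200 sites of the family and 0 of 7340 sites passed, with 27 and 1099 at an unadjusted p under 0.05. Without the filter on low counts 0 of 402 and 0 of 16230 passed, with 41 and 2317 at that p. By edgeR's quasi-likelihood test on recovered reads 8 sites of the family passed, 4 in each direction, where 7.74% of all sites did, 3.68% higher and 4.06% lower. VLDLR and F3, both lower in TGF-beta1 cells, were the additions. DESeq2 called 4 sites of the family and 47 of all sites, with 431 adjusted p-values missing. Without TMM factors, where the median over all sites was -0.51, 1 site of the family was higher and 3 were lower, among 4 and 24 of all sites; with factors over all rows, where that median was 0.14, 4 were higher and 2 lower among 34 and 8 of all sites. In bulk libraries a change in the level of the target RNA and a change in its binding cannot be told apart from a site's value alone.

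**Figure D3:**
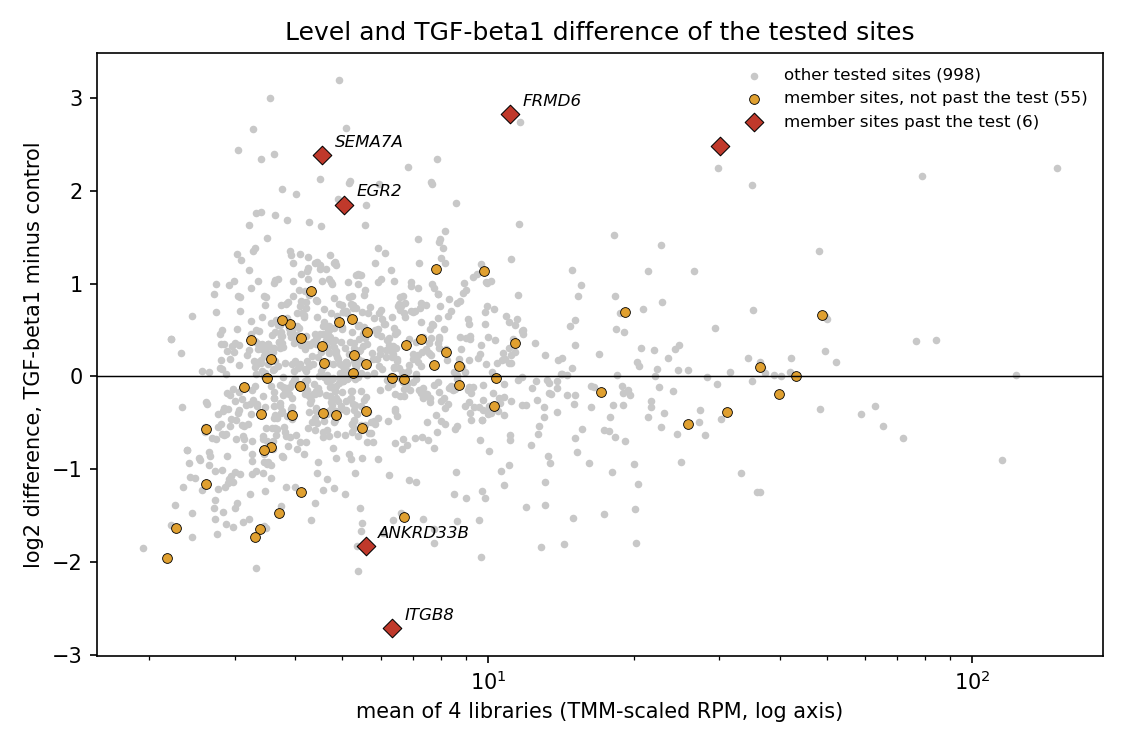
Mean scaled RPM over the 4 libraries (horizontal log axis) and log2 difference, TGF-beta1 minus control (vertical axis), for the 1059 tested sites. Diamonds are the 6 miR-17 family sites that passed the test, circles the other 55 tested ones, and grey points the other sites; the named diamonds lie between -2.72 and 2.83.

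Most of the highest sites of the family did not pass the test. MSMO1, an enzyme of cholesterol synthesis, had the highest mean, with 57.9 and 62.3 scaled RPM in TGF-beta1 cells, against 33.2 and 42.7 in control cells. The groups did not overlap there, but the difference missed the threshold (log2 0.66 ± 0.22, SE, limma adjusted p = 0.0754). SHOC2, a scaffold of Ras signalling, had 39.7 and 46.6 scaled RPM in TGF-beta1 cells, against 36 and 50.9 in control cells. KIF23, a kinesin of cytokinesis, had 38.2 and 36.3 scaled RPM in TGF-beta1 cells, against 42.1 and 43.0 in control cells. Both had limma adjusted p-values of 0.716 or more. Further 3′ UTR sites in this range were those of TMBIM6, an endoplasmic reticulum protein that limits cell death, DCBLD2, a neuropilin-like receptor, and EIF4G2, a translation factor. Their log2 differences were -0.38, -0.51 and -0.17, with limma adjusted p-values of 0.477, 0.314 and 0.814.

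The highest coding sites reached levels within the range of the highest 3′ UTR sites. Over all sites of the family, the median was 11 reads per coding site and 14 per 3′ UTR site. SERINC1, a membrane protein linked to serine incorporation into lipids, had 32.0 and 44.0 scaled RPM in TGF-beta1 cells, against 36.5 and 33.4 in control cells. CCNB1, the mitotic cyclin B1, had 23.4 and 24.0 scaled RPM in TGF-beta1 cells, against 11.1 and 18.2 in control cells (log2 0.70 ± 0.30, SE, limma adjusted p = 0.174). RAB7A, a GTPase of late endosomes, had 10.8 and 15.1 scaled RPM in TGF-beta1 cells, against 10.5 and 8.95 in control cells, on a 6-nt match. ABL2, a tyrosine kinase, and MAPK8, the stress kinase JNK1, followed, with log2 differences of -0.10 and -0.80. By limma 0 of the 7 coding sites tested passed and 1, CCNB1, had an unadjusted p under 0.05. The coding sites held 17.2 ± 0.51% of the family's crosslinked reads in TGF-beta1 cells and 16.6 ± 0.62% in control cells (SD, n = 2 each).

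**Figure D4:**
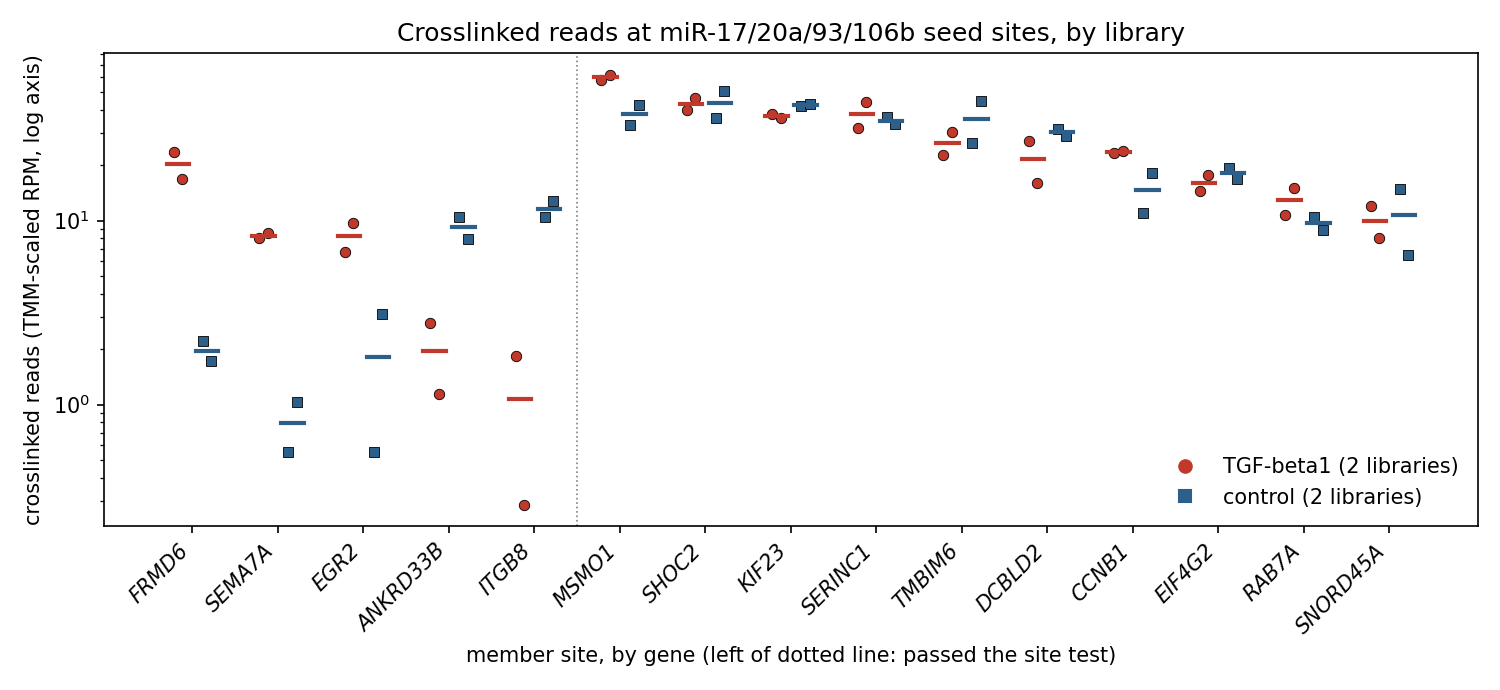
Scaled RPM (vertical log axis) at named miR-17 family sites (horizontal axis), with circles for the 2 TGF-beta1 libraries, squares for the 2 control libraries and a line at each group mean. Left of the dotted line stand sites that passed the test, where the groups do not overlap; right of it stand further sites among the 12 highest by mean level.

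Intronic and non-coding sites were sparse. The highest intronic sites lay in EIF5B, ZNF292, DST, TBL1X and PSPC1, with 20, 19, 17, 13 and 11 crosslinked reads over the 4 libraries, and they did not pass the filter. In all 5 the treated and control libraries overlapped. Among non-coding RNAs the highest was SNORD45A, a small nucleolar RNA, with 12 and 8.0 scaled RPM in TGF-beta1 cells, against 14.9 and 6.54 in control cells. Its crosslink lay 10 nt from a 6-nt match. NORAD, a long non-coding RNA that binds Pumilio proteins, had 39 reads and SNORD105B had 15.

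Several genes held more than one site of the family. Of the 355 gene names, 332 had 1 site, 19 had 2 and 4 had 3 or more. DCBLD2 had 9, of 428 listed sites in the gene, and its 3′ UTR site with 285 reads exceeded the other 8, which had 23 or fewer. FN1, the matrix protein fibronectin, had 4 sites with 23, 16, 6 and 4 reads, and SCD, a fatty acid desaturase, had 3 with 14, 3 and 3 reads. None of the FN1 or SCD sites passed the filter, and the summed sites of both genes rose.

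Summed over all sites of a gene, 13 of the 213 tested genes with a miR-17 family site passed, where 3.08% of 1266 tested genes did, 1.58% higher and 1.5% lower. Those that were higher in TGF-beta1 cells, 8 in all, included FRMD6 (log2 2.37 ± 0.23, SE, limma adjusted p = 0.000442), FN1 (log2 1.77), JAG1, a Notch ligand (log2 3.26), SCD (log2 1.25), SEMA7A (log2 2.41), AMIGO2 (log2 1.29) and ZNF91 (log2 1.41). The 5 that were lower were UGCG, the glucosylceramide synthase (log2 -1.85), PARD6B, a polarity protein (log2 -1.69), AHNAK (log2 -1.51), ITGB8 (log2 -2.81) and ANKRD33B (log2 -2.09). In these sums the family's own site could be a small part: JAG1 had 29 sites, of which 1 belonged to the family with 4 reads. It could also be most or all of the sum. ITGB8 had no other listed site, and the SEMA7A site held 77.9% of that gene's crosslinked reads. The filter kept 213 of the 355 gene names with a family site and 1266 of all 4361. The share that passed was not compared among genes of like level. By edgeR's quasi-likelihood test 15 of the 213 passed, 10 higher and 5 lower, where 3.79% of all genes did, 1.97% higher and 1.82% lower. Leaving out control library 1 or 2 left 0 limma calls with 34 and 45 of the 213 genes at an unadjusted p under 0.05, and 0 calls among all genes. Leaving out TGF-beta1 library 1 or 2 left 8 and 9 calls among the 213, and 11 and 17 among all genes. Without TMM factors, where the median over all genes was -0.45, 4 of the 213 genes were higher and 10 lower, among 6 and 23 of all genes.

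Set against the rest of its gene, no site of the family passed the test. The difference between log2 of a site and log2 of the other sites of the gene could be fitted for 949 sites, 55 of them of the family. By limma, 0 of the 55 passed, where 0% of all did; 6 of the 55 and 69 of the 949 had an unadjusted p under 0.05, and no other tool was run. The FRMD6 site had a log2 difference of 2.83 and the other 21 FRMD6 sites together one of 2.27, and the difference of these, 0.56 ± 0.43 (SE), had a limma adjusted p of 0.773. The other FRMD6 sites held 53.6 and 55.1 scaled RPM in TGF-beta1 cells, against 9.96 and 11 in control cells. For ANKRD33B the site and the rest differed by -0.12 ± 0.48, for SEMA7A by 0.97 ± 0.57 and for EGR2 by 1.21 ± 0.65 (SE), none past the test. SEMA7A and EGR2 had 2 listed sites each, so the rest was the other site alone. In control cells it held 0.553 and 0 scaled RPM for SEMA7A, and 0 and 0.344 for EGR2.

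Among the 6 with an unadjusted p under 0.05, ZNF367, ABHD2, LIMK1 and MSMO1 had more crosslinking at the site relative to the rest of the gene in TGF-beta1 cells, and VLDLR, a lipoprotein receptor, and DCBLD2 less. Their limma adjusted p-values were 0.627 to 0.667. ABHD2, LIMK1 and MSMO1 had 2 listed sites each, so the rest of the gene was the other site alone, at a low level. For ABHD2 that rest held 0.308 and 0.286 scaled RPM in TGF-beta1 cells, against 0.553 and 0.688 in control cells. For MSMO1 it held 0.308 and 1.71 in TGF-beta1 cells, against 2.21 and 1.38 in control cells. In VLDLR the site made up 4.35% of the gene's crosslinked reads in TGF-beta1 cells, against 33.4% in control cells, from 2 and 0 reads against 9 and 9.

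**Figure D5:**
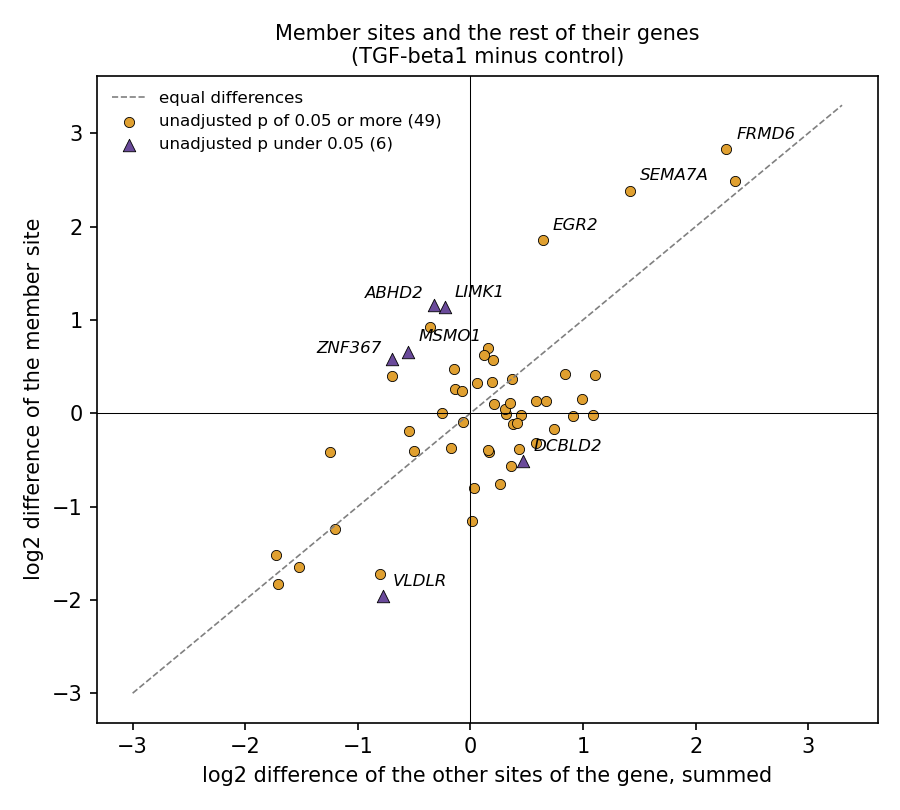
Log2 difference, TGF-beta1 minus control, of a miR-17 family site (vertical axis) against that of the other sites of its gene summed (horizontal axis), for the 55 sites in the within-gene fit. Triangles mark the 6 with an unadjusted p under 0.05, and FRMD6 lies at 2.83 for the site and 2.27 for the rest.

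Genes from 4 lists of known biology were set beside the family's sites. Of all 4361 gene names with a listed site, 355 held one of the family. Of 42 genes published as miR-17 family targets, 27 had any listed site and 12 had one of the family: FRMD6, LIMK1, JAK1, HIF1A, TIMP2, ITCH, STAT3, ATG16L1, TXNIP, WEE1, SQSTM1 and TP53INP1. The series title itself names FRMD6, and the lists were chosen with earlier results of these data known. The values of FRMD6 are therefore no independent support for this list or the Hippo list. FRMD6 and LIMK1 were tested and FRMD6 passed; LIMK1, the kinase of cofilin, had 11.4 and 16 scaled RPM in TGF-beta1 cells, against 3.87 and 7.92 in control cells (log2 1.14 ± 0.39, SE, limma adjusted p = 0.0844). Summed over all sites, 3 of the 15 tested list genes rose and 0 fell, where 3.08% of all genes passed, with a median log2 of -0.03 against 0.02 over all genes. Besides FRMD6 these were the receptor BMPR2 and the inhibitory SMAD7, which had no site of the family.

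Of 36 genes of the TGF-beta and SMAD pathway, 24 had a listed site and 2 a site of the family, one of them SKI, a repressor of SMAD signalling. SKI had 3.08 and 4.28 scaled RPM in TGF-beta1 cells, against 3.32 and 7.57 in control cells, and the groups overlapped. In the sums over all sites, 6 of 16 tested pathway genes rose and 0 fell, where 1.58% of all genes rose and 1.5% fell, with a median log2 of 0.52 against 0.02 over all genes. Of 26 Hippo genes, FRMD6 and the kinases TAOK1 and STK3 held 1 site each, the last pair with 20 and 7 reads, and by sums 1 gene rose and 1 fell of 9 tested, with a median log2 of 0.14; the shares over all genes are those just given. Of 23 cell cycle genes, CCNB1 and the kinase WEE1 held 1 site each, and the median log2 over the 8 tested genes was -0.06.

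The share of covering reads that carried the crosslink was higher over these sites together than over sites with other seed entries, whose match types differ. Over sites crosslinked in all 4 libraries it was 38.4 ± 0.99% in TGF-beta1 cells and 41.2 ± 1.4% in control cells for the 235 miR-17 family sites (SD, n = 2 each). For the 4408 sites with other seed entries it was 27.5 ± 1.6% in TGF-beta1 cells and 33.2 ± 2.4% in control cells. Of all listed sites, 50% in the family and 29.0% with other seed entries had a 7-nt match. The family and the other entries were not compared within a match type. The share was 43.5% in TGF-beta1 cells and 46.3% in control cells at the 7-nt sites of the family, and 26.6% in TGF-beta1 cells and 30.4% in control cells at its 6-nt sites. It was lower in both TGF-beta1 libraries than in both control libraries in each of these sets, and its part in the site differences was not tested.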

How the data were processed

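The deposited table gives RPM values per site and library, which the authors scaled to the reads of each library, per the file headers, for reads that cover the crosslinked base and for reads that carry the crosslink. It also gives a score per seed entry, the authors' library-scaled microRNA reads, rounded by them. The submitters' processing notes name bcl2fastq 2.20.0.422, STAR 2.7.1a, bedtools and hg38. The header of the site table gives GENCODE release 27 for gene annotation; the crosslink caller is not given in the sources used here. Another 4 columns of per-sample values, which match no sample here, were not used.

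All RPM values were whole multiples of 1 read (100% within 0.1 reads), so reads were recovered. Sites kept by edgeR's filterByExpr (minimum count 10) were tested with limma on log2(TMM-scaled RPM of crosslinked reads + 1), with a variance trend, two-sided, Benjamini-Hochberg adjusted p under 0.05. Log2 differences on this scale understate the change of low sites. Gene sums, seed-entry sums and site minus rest of gene were fitted alike. Tools were R 4.3.3, limma 3.58.1, edgeR 4.0.16, DESeq2 1.42.0 and scipy 1.17.1. The fits were tested on simulated data.

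The members, lists, variance trend and naming rule were chosen with earlier results of these data known. TMM factors were first computed over all rows; they were changed to the tested rows after both sets of call counts had been seen. Libraries of the same number correlated at 0.117 over sites in their deviations from group means, with 2 pairs only, and the labels give no shared origin, so numbers were not taken as pairs. The text names sites called by the test, the 12 highest, the highest 5 coding, 5 intronic and 3 non-coding sites, genes with 3 or more sites and list members; called genes and the 6 sites with an unadjusted within-gene p under 0.05 were named after their values were seen. Results of a few sites covered by that rule, 1 called site among them, are not reported here by name; they are in every count. Alternatives were other pseudocounts, filters, scalings, tools, covering reads, a replicate block and leaving out each library.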

Additional observations from a re-analysis of the deposited data

How the results depend on the processing

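Member sites called numbered 6, of 76 among all sites. They numbered 0 on covering reads and 0 without the low-value filter, where more sites were tested, 10 with a pseudocount of 4 (92 among all sites), 12 with the replicate block (117), and 0 to 11 when 1 library was left out (3 to 116). Genes with a member called numbered 13, of 39 among all genes. They numbered 3 without the filter (4 among all genes), 2 without the variance trend (3), 21 with the replicate block (64) and 0 to 9 with 1 library left out (0 to 17). TMM factors over all rows, chosen after seeing the data, gave 6 sites (42 among all sites) and 18 genes (65 among all genes). Within genes, 2 of 324 member sites passed without the filter (55 of 13676 among all sites), against 0 in the main fit. With the replicate block 0 passed (1 among all sites). The summed family difference of -0.02 was 0.11 over 3′ UTR sites, -0.02 with the replicate block and -0.15 to 0.11 with 1 library left out. Without a TMM factor it was -0.51, as the median over all sites also was (-0.51). The share difference of -0.02 percentage points lay between -0.36 and 0.33 with 1 library left out. Uncalled sites near 0 turned sign. SHOC2 (0.01) was -0.65 without a TMM factor, -0.024 by edgeR, -0.025 by DESeq2, -0.46 on covering reads and -0.24 to 0.25 with 1 library left out. SERINC1 (0.10) was -0.55 without a TMM factor, -0.19 on covering reads and -0.10 to 0.33 with 1 library left out. RAB7A (0.37) was -0.24 without a TMM factor. SNORD45A (-0.02) was 0.088 without the filter, 0.088 with TMM over all rows, 0.18 on covering reads and -0.55 to 0.52 with 1 library left out. The cause was not tested. No called site turned sign in any alternative that gave it a value (DESeq2 gave SEMA7A none). Pairs of libraries limit the precision, and 341 sites did not pass the filter on low levels.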

Other observations

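The seed of the family was also listed by the authors as a further seed at 142 sites whose best match was to another microRNA, 39 of them adjacent to or near the crosslink. Of these sites 90 lay in 3′ UTRs, and the median was 10 reads. By limma 19 were tested and 0 passed, with 3 at an unadjusted p under 0.05. The highest was a DCBLD2 3′ UTR site assigned to miR-148a, which overlaps the family in its letters, with a log2 difference of 0.03 (limma adjusted p = 0.955). AMIGO2, a cell-adhesion protein, held a coding site of the family with 13 and 29 reads in TGF-beta1 cells, against 0 and 3 in control cells, and did not pass the filter. STAT3 held a 7-nt 3′ UTR site with 1 and 1 reads in TGF-beta1 cells, against 4 and 9 in control cells, also untested. AMIGO2 and STAT3 were singled out after their values were seen.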
